A study of Rattus norvegicus with 6 samples.

Results

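The hemoglobin chains Hba-a1, Hba-a2, Hba-a3 and Hbb, the heme synthesis enzymes Alas2, Cpox, Fech and Urod, and the mitochondrial iron importer Slc25a37 were followed in whole blood after middle cerebral artery occlusion (MCAO). The probe sets were chosen by symbol in the array annotation, and all 9 genes were found, on 10 probe sets of the 31042 tested, in a table that names 14224 genes by probe sets with 1 symbol. Blood was taken from the heart of male Sprague-Dawley rats of 8 weeks, 24 h after reperfusion. In the MCAO group (n = 3) a coated thread was pushed to the origin of the left middle cerebral artery and later withdrawn. In the sham group (n = 3) the same arteries were tied and an uncoated thread was used, so both groups share anesthesia, ligation and thread. The MCAO rats were picked by the study from a larger number of operated rats because their infarct index lay within a narrow range, so they stand for infarcts of 1 size. Each rat gave 1 array, on which a value is the log2 expression of a probe set after DFW (Distribution Free Weighted) summarisation, a method that weights single probes by their behavior and shrinks the differences from array to array.

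Red cells carry oxygen with hemoglobin, a tetramer of α-globin and β-globin chains, each holding a heme. Heme is built from glycine and succinyl-CoA, with the first and the last steps in the mitochondrion, and the final enzyme inserts iron brought in by a carrier of the inner membrane. Mature red cells of mammals have no nucleus. Globin and Alas2 transcripts of blood lie mainly in reticulocytes, the youngest circulating red cells, whereas Urod, Cpox and Fech are also expressed in leukocytes. In whole blood, fewer cells of a type and less RNA per cell cannot be told apart.

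The rat α-globin genes lie near each other on chromosome 10 and Hbb lies on chromosome 1. On the array, 3 probe sets carry both Hba-a1 and Hba-a2, whereas Hba-a3 has a probe set of its own. To show how alike these genes are, the 120 bases before the start of each globin gene are given below in RefSeq sequence of GRCr8, 5′ to 3′ on the minus strand, from chr10:15842581-15842700, chr10:15829139-15829258, chr10:15816944-15817063 and chr1:167663722-167663841. Capitals mark TATAAA as the TATA box, CCAAT as the CCAAT box and CACCC as the CACCC box, each searched on both strands and overlapping no other kind of motif.
Hba-a1: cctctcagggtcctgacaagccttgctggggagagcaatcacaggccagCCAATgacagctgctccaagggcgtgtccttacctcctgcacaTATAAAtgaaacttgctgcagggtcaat
Hba-a2: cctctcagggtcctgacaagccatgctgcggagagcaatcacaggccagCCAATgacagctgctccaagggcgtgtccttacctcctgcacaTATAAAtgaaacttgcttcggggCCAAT
Hba-a3: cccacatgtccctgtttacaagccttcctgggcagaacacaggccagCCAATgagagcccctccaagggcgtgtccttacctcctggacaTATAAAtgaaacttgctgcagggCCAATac
Hbb: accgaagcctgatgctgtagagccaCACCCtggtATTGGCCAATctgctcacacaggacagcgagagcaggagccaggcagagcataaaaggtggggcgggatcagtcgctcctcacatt

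In these windows Hba-a1 and Hba-a2 were identical at 115 of 120 aligned bases (95.8%), Hba-a1 and Hba-a3 at 104 of 125 (83.2%), and Hba-a1 and Hbb at 72 of 139 (51.8%). The TATA box stood 28 bases before the start in Hba-a1 and Hba-a2 and 30 bases before it in Hba-a3, and 6.82% of 27457 windows of this length hold its letters. The CCAAT box was present in all 4 globin windows and in 20.1% of all windows, and the CACCC box was present in Hbb alone among the 4 and in 29.4% of all windows. None of the 4 held GATAA, a site of GATA factors found in 11.1% of windows. None held GAANNTTC, part of a heat shock element, found in 3.5% of windows and searched after the values of Hba-a3 had been seen. The promoter table has 7 of the 9 genes, and the windows of the enzymes are not shown, since the data bear on none of them.

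The main adult globin probe sets had the same value in every rat. At the 3 probe sets of Hba-a1 and Hba-a2 (1370239_at, 1370240_x_at and 1388608_x_at), which encode the adult α chains, all 6 rats lay at 14.399530, at 14.425953 and at 14.275404. At that of Hbb (1367553_x_at), an adult β chain, all 6 lay at 14.211452. The range over the 6 rats was 1e-08, 0 and 1e-08 for the α probe sets and 3e-08 for Hbb, which is at most 3 units in the last deposited digit. At 1388608_x_at the MCAO rats stood 1e-08 above the sham rats, 1 unit in that digit, so that the groups do not overlap there on paper (exact two-sided permutation p = 0.1, the smallest possible with 3 rats against 3). On this scale the MCAO and sham groups could not be told apart for these 4 probe sets, and the data give no reading of globin RNA beyond that.

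Such flat values were shared by the probe sets at this level. The 5 probe sets with a mean of at least 14 were all of hemoglobin chains, the other being a β-globin probe set (1371102_x_at) that carries Hbbl1 and Hbb-bs, and their largest range was 3e-08. The median range was 1.13e-05 for 9 probe sets with means between 13 and 14, 8.40e-05 for 26 between 12 and 13, and 0.00141 for 211 between 8 and 9. Small ranges were also found at low levels. There the median range was 2.92e-05 for 4697 probe sets between 6 and 7 and 5.01e-06 for 25191 between 5 and 6. The highest value of the whole table, 14.43, belongs to 1370240_x_at. A further probe set of Hbbl1 and Hbb-bs (1371245_a_at), chosen like the former after the values were seen, had a range of 0.000657 and a log2 difference of 6.18e-06 (SE 0.000281).

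**Figure D1:**
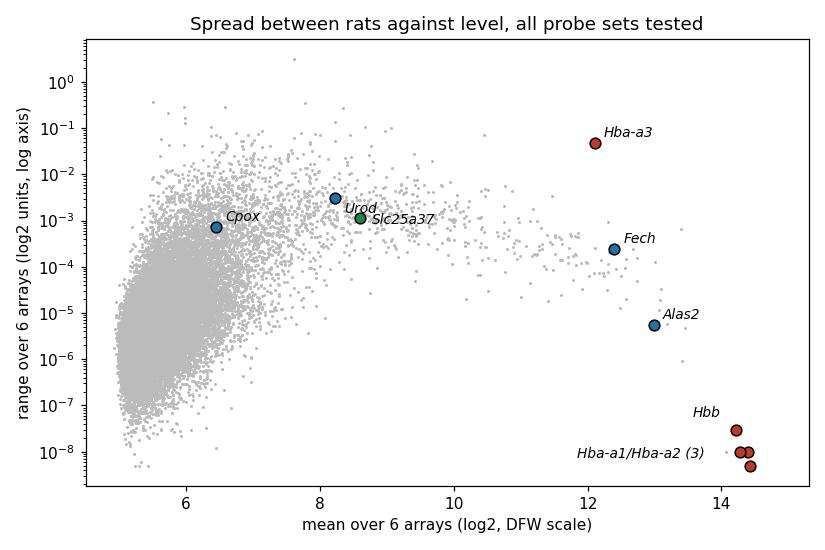
Range of each tested probe set over the 6 arrays (y axis, log2 units on a log axis) against its mean (x axis, log2 on the DFW scale), with globin chains in red, heme enzymes in blue, the iron importer in green and the other probe sets as grey points. Ranges of 0 are drawn at 5e-09. The 4 probe sets of Hba-a1, Hba-a2 and Hbb lie at the lower right with ranges of at most 3e-08, while Hba-a3, at a mean near 12.1, has a range of 0.0467.

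Hba-a3, a further α-globin gene, was the only member that was called. Its probe set (1375519_at) lay at 12.1249, 12.1237 and 12.0853 in MCAO rats 1 to 3 and at 12.1244, 12.0782 and 12.0865 in sham rats 1 to 3. MCAO rats 1 and 2 and sham rat 1 were high and within 0.00119 of each other. MCAO rat 3 and sham rats 2 and 3 were low, and a gap of 0.0372 divided the high from the low. The groups therefore overlapped, 2 of the high rats being MCAO rats and 1 a sham rat. The MCAO group averaged 12.1113 ± 0.0225 and the sham group 12.0963 ± 0.0246 (SD, n = 3), so that the log2 difference was 0.0149 (SE 0.0193).

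By Rank Products, the method named for the study, Hba-a3 was upregulated in the MCAO group with a false discovery rate (FDR) of 0.0256. By limma it was not called (adjusted p = 1), and the exact two-sided permutation p was 0.6. The difference was smaller than the SD within either group. Rank Products ranks each difference among those of all probe sets, and the range of Hba-a3 was the widest of the 26 probe sets with means between 12 and 13 and stood at place 35 of all 31042. Of the 228 probe sets called, 219 were among the 1000 with the widest range. The call was lost without MCAO rat 1 (FDR 0.597, difference 0.00816), MCAO rat 2 (FDR 0.629, 0.00876) or sham rat 2 (FDR 0.383, 0.00586). It was kept without MCAO rat 3 (FDR 0.04, 0.0279), sham rat 1 (FDR 0.000588, 0.0290) or sham rat 3 (FDR 0.0376, 0.01002). It was also lost among the probe sets above the median level (FDR 0.0577) and after quantile normalization (FDR 0.261).

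Of the 10 member probe sets, 1 was called, as were 0.734% of all probe sets. It was 1 of 10 in the upward direction, against 0.129% of all, and 0 of 10 in the downward direction, against 0.606%. Over all probe sets 40 were called higher and 188 lower, a split that came to 47 and 43 without sham rat 1, 48 and 21 without sham rat 2, and 56 and 12 without sham rat 3. By limma, 0% of the probe sets were called at an adjusted p under 0.05, 1150 had an unadjusted p under 0.05, and none of these was a member. The groups did not overlap in 8.41% of all probe sets and in 1 of the 10 member probe sets, the flat 1388608_x_at with its 1 unit in the last digit.

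The probe sets with 1 symbol whose pattern over the 6 rats was most like that of Hba-a3, among 863 with a range of at least 0.001, were those of C10h5orf15 (r = 0.87), Cacybp (r = 0.87 and 0.84 at 2 probe sets), Hspa1a (r = 0.84) and Dnajb1 (r = 0.83). Cacybp encodes a binding partner of calcyclin, Hspa1a the inducible Hsp70, and Dnajb1 an Hsp40 co-chaperone. These r values are descriptions over 6 arrays that share their normalization. None of the 863 had r over 0.9, and 6 had r over 0.8. In Hspa1a the values were 6.0589, 5.9804 and 5.9750 in MCAO rats 1 to 3 and, on the same scale, 6.0391, 5.9316 and 5.9481 in sham rats 1 to 3. MCAO rats 1 and 2 and sham rat 1 were the highest 3, but without the gap seen in Hba-a3. MCAO rat 2 lay just above MCAO rat 3, and only MCAO rat 1 and sham rat 1 stood apart at the top. Hspa1a was named for its likeness to Hba-a3, so the shared order follows from that choice and is no separate evidence. Over the 1081 probe sets of this range, those without a symbol included, the same rats were the highest 3 in 0.925%. This share is no measure of the match in probe sets picked by their r.

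**Figure D2:**
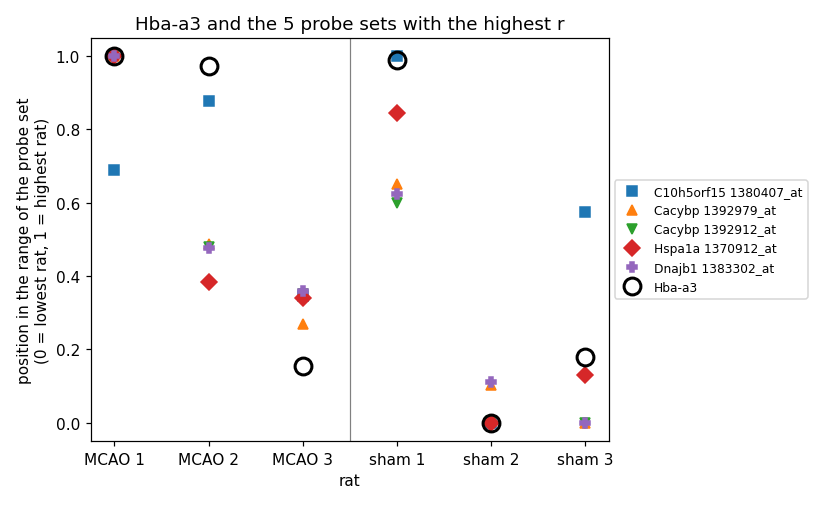
Position of each rat (x axis) within the range of a probe set (y axis, no unit, 0 for the lowest and 1 for the highest of the 6 rats) for Hba-a3 (open circles) and the 5 probe sets with the highest r. MCAO rats 1 and 2 and sham rat 1 lie at 0.97 or above for Hba-a3, and the other 3 rats at 0.18 or below.

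The 4 heme enzymes and the iron importer had a slightly lower mean in the MCAO group, and none of the 5 was called. In all 5 the highest of the 6 rats was sham rat 3, which was the highest in 17.7% of all probe sets. A lower mean in the MCAO group was found in 46.56% of all probe sets. The differences ran from 2.08e-06 to 0.000911 in size. Their median over the 4 enzymes was -0.000198, beside 6.72e-08 over all probe sets, and the median range of the enzymes over the 6 rats was 0.000485. When each array was centred on its median, Alas2 turned higher in the MCAO group (2.77e-05), while the other 4 stayed lower.

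Fech (1390388_at), the ferrochelatase that inserts iron as the last step, came nearest to a separation of the groups. It lay at 12.400378, 12.400448 and 12.400329 in MCAO rats 1 to 3 and at 12.400438, 12.400536 and 12.400574 in sham rats 1 to 3. Only sham rat 1 lay within the MCAO rats, just below MCAO rat 2. The log2 difference was -0.000131 (SE 5.34e-05), with an FDR of 0.304 for lower and an exact permutation p of 0.2. By limma the unadjusted p was 0.0528 and the adjusted p was 1. Whichever rat was left out, the difference stayed below 0, between -0.000170 and -0.000102. After quantile normalization it was 0.

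Urod (1370878_at), the uroporphyrinogen decarboxylase of the cytosol, lay at 8.22396, 8.22209 and 8.22398 in MCAO rats 1 to 3 and at 8.22300, 8.22463 and 8.22514 in sham rats 1 to 3. MCAO rat 2 was the lowest and sham rat 1 lay below MCAO rats 1 and 3, so the groups overlapped. The log2 difference was -0.000911 (SE 0.000899, FDR 0.118), with an exact permutation p of 0.4. It came to -0.000284 without MCAO rat 2, -0.000470 without sham rat 3 and -0.00154 without sham rat 1. Urod was called lower without MCAO rat 1 (FDR 0.0450, difference -0.00122) and after quantile normalization (FDR 0.0175, -0.00783). The difference after quantile normalization was larger in size than the whole range of the deposited Urod values (0.00305). It therefore cannot be read from the deposited values, and that call is no separate evidence that Urod was lower.

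Cpox (1377998_at), the coproporphyrinogen oxidase between the outer and inner mitochondrial membranes, lay at 6.44752, 6.44727 and 6.44714 in MCAO rats 1 to 3 and at 6.44741, 6.44745 and 6.44787 in sham rats 1 to 3. Sham rat 3 stood above the other 5 rats, and sham rats 1 and 2 lay below MCAO rat 1. The log2 difference was -0.000265 (SE 0.000183, FDR 0.258) and came to -0.000120 without sham rat 3 and to 0 after quantile normalization, with an exact permutation p of 0.3 for the 6 rats.

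Alas2 (1367985_at), the erythroid enzyme of the first and rate-limiting step, lay at 12.9901618, 12.9901619 and 12.9901657 in MCAO rats 1 to 3 and at 12.9901630, 12.9901653 and 12.9901673 in sham rats 1 to 3. MCAO rats 1 and 2 were the lowest and MCAO rat 3 lay above sham rats 1 and 2. The log2 difference was -2.08e-06 (SE 1.79e-06, FDR 1 for lower), with an exact permutation p of 0.3, and the range of Alas2 was the smallest of the 26 probe sets with means between 12 and 13. Over all probe sets, 45.49% had a smaller range than Alas2.

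Slc25a37 (1382688_at), the carrier that brings iron into the mitochondrion of erythroid cells, lay at 8.59551, 8.59558 and 8.59489 in MCAO rats 1 to 3 and at 8.59529, 8.59489 and 8.59601 in sham rats 1 to 3. Both groups spanned low and high rats, with MCAO rat 3 and sham rat 2 at the same low value. The log2 difference of -6.95e-05 (SE 0.000394, FDR 0.886) was far within the spread, with an exact permutation p of 0.9. Its direction turned without MCAO rat 3 (0.000148) and without sham rat 3 (0.000238).

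**Figure D3:**
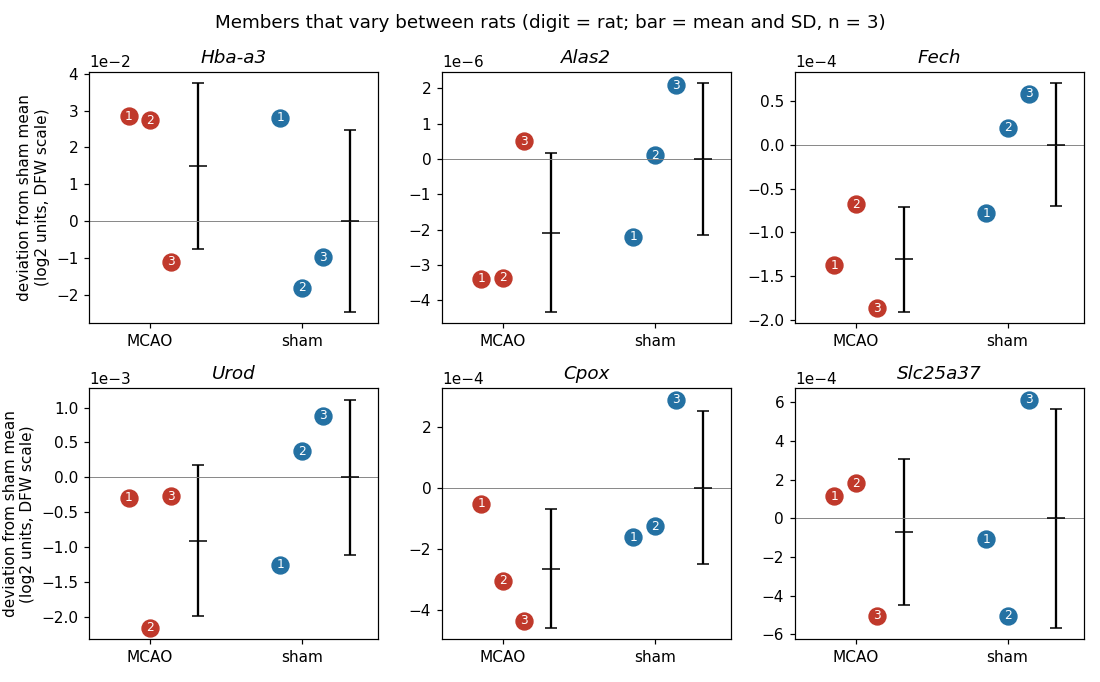
Deviation of each rat from the sham mean (y axis, log2 units on the DFW scale, with the power of 10 above each panel) for the 6 member probe sets that vary, with the rat number as symbol and with bars for mean and SD (n = 3). Each panel has its own y axis. Hba-a3 shows 3 high and 3 low rats in a mix of both groups, and sham rat 3 is the highest in the other 5 panels.

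Probe sets of the same class thus differed in how far they could be read. The range over the 6 rats ran from 0 to 0.0467 (Hba-a3) among the globins and from 5.48e-06 (Alas2) to 0.00305 (Urod) among the enzymes. The level was 12.10 to 14.43 at the 5 globin probe sets, 6.45 to 12.99 at the 4 enzyme probe sets and 8.60 at the importer; these levels of different probes are given side by side and are not amounts of RNA that can be compared. The median difference between the groups was 0 for the globin probe sets, -0.000198 for the enzymes and -6.95e-05 for the importer. By rat, the median deviation of the 4 enzymes from the sham mean was -9.55e-05, -0.000187 and -0.000231 in MCAO rats 1 to 3, against -0.000120, 9.93e-06 and 0.000173 in sham rats 1 to 3. Sham rat 1 lay among the MCAO rats. For the importer the deviation was 0.000115, 0.000181 and -0.000505 in MCAO rats 1 to 3, against -0.000109, -0.000505 and 0.000614 in sham rats 1 to 3. Sham rat 3 was the highest in both, but MCAO rats 1 and 2 lay above the sham mean for the importer and below it for the enzymes.

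Other genes around heme and iron were read from lists of probe sets with 1 symbol, beside 0.606% of all probe sets called lower and 0.129% called higher. Of 25 probe sets for 19 further genes of heme synthesis, heme transport and iron-sulfur cluster assembly, 1 was called lower and none higher, and 20 had a lower mean in the MCAO group (median difference -2.55e-06), beside the 46.56% of all probe sets. The called gene was Isca1, an assembly factor of iron-sulfur clusters, with values of 8.2856, 8.2795 and 8.2805 in MCAO rats 1 to 3, against 8.2844, 8.2856 and 8.2876 in sham rats 1 to 3. MCAO rat 1 lay within the sham rats. Its log2 difference was -0.00399 (SE 0.00209, FDR 0.0105), and the call was lost without sham rat 1 (FDR 0.0839), 2 (FDR 0.200) or 3 (FDR 0.289). Without MCAO rat 1 the list had 3 probe sets called lower.

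Of 17 probe sets for iron uptake and storage, 1 was called lower, 13 had a lower mean in the MCAO group (median -1.91e-05) and sham rat 3 was the highest in 10. The shares of all probe sets were 0.606%, 46.56% and 17.7%. The called gene was Tfrc, the transferrin receptor that takes iron into erythroid precursors, with 7.1402, 7.1444 and 7.1334 in MCAO rats 1 to 3, against 7.1398, 7.1445 and 7.1535 in sham rats 1 to 3. Sham rat 3 stood apart at the top, and the other rats of both groups were mixed. The log2 difference of -0.00661 (SE 0.00516, FDR 0.0193) came to -0.00281 without sham rat 3 (FDR 0.516) and -0.00363 without MCAO rat 3 (FDR 0.114), and the call was also lost without sham rat 2 (FDR 0.307). Of the 17 probe sets of erythroid transcription factors and regulators, 1 was called lower, at Eif2ak1, the heme-regulated kinase that slows globin translation when heme is short. Eif2ak1 had a log2 difference of -0.00163 (SE 0.000870, FDR 0.0391), with the highest values in sham rats 2 and 3 (7.8781 and 7.8795), and was called without MCAO rat 1 (FDR 0.00511) but not without any of the other 5 rats (FDR from 0.0546 to 0.471). Of 9 probe sets of other globins and the globin chaperone Ahsp, and of 9 of heme and hemoglobin clearance, none was called, and 2 and 4 had a lower mean in the MCAO group.

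Red cell and reticulocyte markers moved in both directions. Of 36 probe sets for 21 genes, 3 were called lower and 1 higher, and 32 were not called. A lower mean in the MCAO group was found in 27 (median -1.94e-05). Over all probe sets 0.606% were called lower and 0.129% higher, and 46.56% had a lower mean. Sham rat 3 was the highest in 20 of the 36, as in all 5 heme probe sets. Car1, a carbonic anhydrase of red cells, was lower in every MCAO rat (6.7739, 6.7694 and 6.7785) than in every sham rat (6.7803, 6.7885 and 6.7816), with a log2 difference of -0.00950 (SE 0.00367, FDR 0.000556). Car1 was called lower whichever rat was left out (FDR from 0 to 0.0450). Kel, a blood group protease of the red cell membrane, was also lower in every MCAO rat, by -0.00406 (SE 0.00148, FDR 0.00393), and was not called without any 1 of the sham rats (FDR from 0.0724 to 0.121). The exact permutation p was 0.1 for both, the smallest possible. Car1 and Kel were the only 2 of the 36 probe sets without overlap of the groups. Over all probe sets the groups did not overlap in 8.41%, counted in either direction, so such separation was not more frequent among the red cell markers.

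Xpo7, a nuclear exporter of maturing erythroblasts, had a log2 difference of -0.00410 (SE 0.00261, FDR 0.0104), which came to -0.00164 without sham rat 3 (FDR 0.348), and it was not called without sham rat 1 (FDR 0.145) or 2 (FDR 0.0555) either. Car2, the other carbonic anhydrase of the list, was called higher with a difference of 0.00965 (SE 0.00746, FDR 0.00409). Car2 lost the call without MCAO rat 2 (FDR 0.654), MCAO rat 3 (FDR 0.217) or sham rat 1 (FDR 0.0777). Without sham rat 1, 2 or 3 the red cell list had 1 probe set called lower, and without MCAO rat 1 it had 6. The mean log2 value over the list ran from 8.5544 to 8.5548 in the MCAO rats and from 8.5543 to 8.5556 in the sham rats, so the groups overlapped.

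Markers of other blood cells differed between the same rats. Their counts stand beside 0.606% of all probe sets called lower, 0.129% called higher and 46.56% with a lower mean in the MCAO group. MCAO rat 3 was the highest in 13 of 15 neutrophil probe sets, against 15.5% of all probe sets. Of the 15, 2 were called lower and 2 higher, and 5 had a lower mean in the MCAO group. The 2 called lower, S100a9 and Lrg1, had a higher mean in the MCAO group, by 0.00271 (SE 0.0295) and 0.00504 (SE 0.0238), since MCAO rat 3 stood far above MCAO rat 1. The mean log2 value over that list ran from 6.228 to 6.254 in the MCAO rats and from 6.236 to 6.240 in the sham rats. MCAO rat 3 was also the lowest rat for Fech and Cpox, and for Slc25a37 level with sham rat 2. For Alas2 and Urod it was instead the highest of the MCAO rats, at 0.71 and 0.62 of the range from the lowest to the highest rat. The neutrophil probe sets called higher were those of Csf3r (0.0131, SE 0.0199) and Il1r2 (0.000485, SE 0.000230). The neutrophil calls came to 4 lower and 0 higher without MCAO rat 3, to 0 without MCAO rat 2, and to 0 lower and 1 higher without MCAO rat 1. Without sham rat 1, 2 or 3 none was called lower, and 2, 2 and 1 were called higher. All 22 lymphocyte probe sets had a lower mean in the MCAO group, 5 of them called (Cd3g, Ms4a1, Cr2, Tcf7 and Prf1, with differences from -0.00603 to -0.000833). Sham rat 2 was the highest in 10 and sham rat 3 in 8, against 14.8% and 17.7% of all probe sets. MCAO rat 1 was the lowest in 15 of the 22, against 19.5% of all probe sets. None of the lymphocyte probe sets was called without sham rat 2 or without sham rat 3. Lymphocyte calls came to 2 without MCAO rat 1 or sham rat 1. Of 12 platelet probe sets, 2 were called higher, both of Rab27b (0.000433 and 0.000709), and none when any 1 of the MCAO rats was left out. A lower mean in the MCAO group was found in 1 of the 12. Of 7 monocyte probe sets, 1 was called lower, that of Cd36 (-0.00904, SE 0.00735), and 3 had a lower mean in the MCAO group. The monocyte calls came to 3 lower without MCAO rat 3, to 0 lower and 1 higher without sham rat 2, to 0 without sham rat 3, and to 1 in each direction without MCAO rat 1. The part of these cell types in the values of the heme enzymes and of Hba-a3 was not tested.

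**Figure D4:**
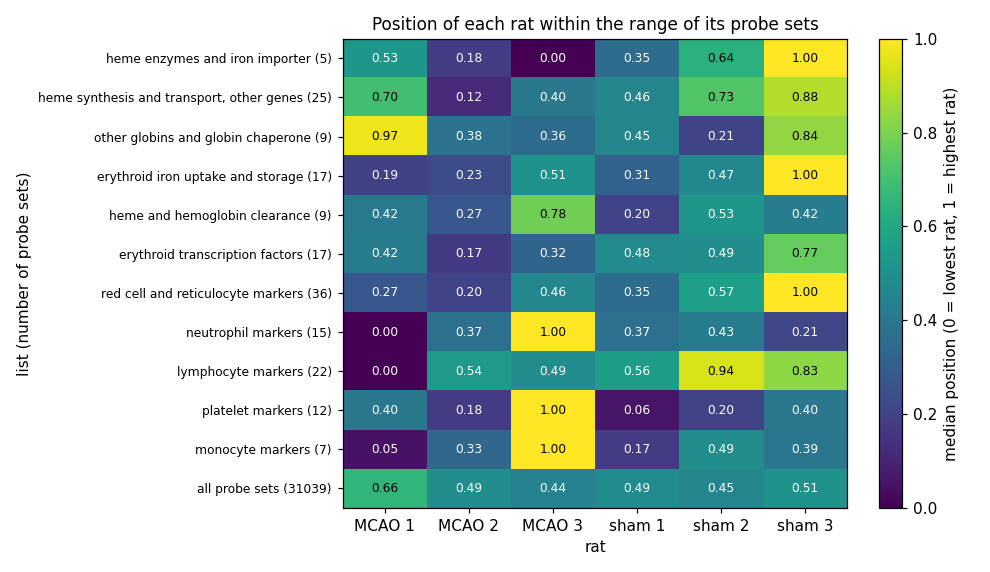
Median position of each rat (columns) within the range of the probe sets of a list (rows, with the number of probe sets), where 0 is the lowest and 1 the highest of the 6 rats (color and printed value, no unit). Sham rat 3 stands at 1 for the heme enzymes and importer, for iron uptake and for red cell markers, and MCAO rat 3 stands at 1 for neutrophil, platelet and monocyte markers.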

How the data were processed

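RNA of whole blood was hybridized to GeneChip Rat Genome 230 2.0 arrays, 1 per rat. The authors normalized and summarised the 6 arrays together with DFW in R and deposited log2 values, 1 for each probe set on each array; no log base is stated with the table, and log2 was taken from its range of 4.93 to 14.43. DFW contracts differences very unequally between probe sets, so differences here are not fold changes of raw intensity. No background level can be read from them, and precision is limited by the small number of arrays.

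After 57 control probe sets were left out, 31042 were tested. Rank Products (all 9 MCAO minus sham differences, 100 permutations within arrays, FDR under 0.05) was written in Python 3.11.15 with numpy 2.4.6, pandas 2.3.3 and scipy 1.17.1. Differences, SE and Benjamini-Hochberg adjusted p values came from limma 3.58.1 in R 4.3.3. The SE is that of the probe set's own residual spread, whereas the limma p values use a variance moderated over all probe sets. A limma p therefore does not follow from the printed difference and SE. Both were also run on simulated arrays with known changes, and the outcome is not reported here. For single probe sets, exact two-sided permutation tests went through the 10 ways to set 3 arrays against 3. Replicates are separate rats.

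Gene symbols are those of the platform annotation. Of the probe sets tested, 20837 had 1 symbol, 425 several and 9780 none, and 20766 of the first matched the GRCr8 reference by gene ID, as did all 9 members. Probe sets with several symbols were left out of the lists. The members and lists were chosen with earlier results of these data known. Named were all members, the called probe sets of every list, and the 5 probe sets most like the called member. The probe sets of Hbbl1 and Hbb-bs were named beyond this, after their values were seen. Promoters were aligned globally with Biopython 1.88. Alternatives were limma with and without an intensity trend, a replicate block, a stricter FDR of 0.01, a filter at the median level, inclusion of control probe sets, quantile normalization, centring of each array, and omission of each rat.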

Additional observations from a re-analysis of the deposited data

How the results depend on the processing

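The counts of called probe sets depended on the method. By limma, with or without an intensity trend and with the replicate block, the counts were 0 for all probe sets, 0 for the 10 members and 0 for the lists, against 228, 1 and 19 by Rank Products. Rank Products with the replicate block gave 351, 1 (Hba-a3, FDR 0.0498) and 26. The labels do not say that same-numbered rats belong together. The correlation of their deviations from the group means was 0.211, 0.04 and 0.066, and 4 of the 6 rats correlated best with their own number. Deviations from a mean of 3 rats are tied to each other, and no reference value was computed. These values therefore cannot decide whether the rats were paired. The study's methods name no covariate, and the main test used no block. An FDR under 0.01 gave 79, 0 and 5, and the probe sets above the median level gave 120, 0 and 11. Quantile normalization gave 105, 1 (Urod in place of Hba-a3) and 4. The quantile-normalized difference of Urod was larger in size than its deposited range, so that call is no separate evidence of a lower Urod. Leaving out 1 rat gave 68 to 358, 0 to 1 and 6 to 21, with the lowest count for all probe sets without sham rat 3 and the highest without MCAO rat 3. With control probe sets kept or arrays centred, Hba-a3 stayed the 1 called member.

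The median difference of the globin probe sets came to 2.98e-05 with arrays centred on the median, a shift that centring adds to every probe set alike, and their mean was 0.00299, which rests on Hba-a3. For the enzymes the median was 0 after quantile normalization and the mean was -0.000327, and for the importer quantile normalization gave -0.00418. That value for the importer was likewise larger in size than its whole deposited range (0.00112), so no direction is read from it. Of the 80 alternatives for the difference of a single member probe set, 9 moved it by more than the spread between replicates. Without 1 rat, no member difference did so.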
